A study of Mus musculus with 8 samples.

Results

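MLO-Y4 is an established mouse osteocyte-like cell line, and the subject here is the absolute expression profile of its control cells under fluid shear stress. The members are the 4 libraries labelled as control, of 8 libraries in the series, and genes were ranked by their mean TPM, a read count scaled by gene length and by library total, over those 4. Each control library carried the genotype label WT and the treatment label fluid shear stress, which was applied in a flow chamber slide at 2 Pa for 4 cycles. The labels do not say what the control cells received in place of the silencing oligonucleotide, and the treatment text shared by all 8 samples mentions the silencing step without exempting the controls. The other 4 libraries, which received an antisense oligonucleotide, are not analysed here. No control library came from cells without shear, so a high level is a level in sheared cells and not a response to shear. Whether the libraries are separate cultures is not stated, so the spread given below may be technical in part.

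Osteocytes are former osteoblasts that have become enclosed in mineralised matrix and are joined to one another through long dendrites and connexin gap junctions. They sense fluid flow in their canaliculi, and they signal to other bone cells through sclerostin, RANKL, osteoprotegerin and prostaglandins. MLO-Y4 was derived from the long bones of a mouse that carried a viral large T antigen under the osteocalcin promoter, and it is known for its dendritic shape, abundant connexin 43 and low sclerostin. It remains a dividing, immortalised line, which limits it as a model of an embedded osteocyte.

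The label was met in part by its own markers. Fn1 (fibronectin), Spp1 (osteopontin), Pdpn (podoplanin, a marker of early osteocytes and of dendrite growth), Gja1 (connexin 43) and Col1a1 were all abundant. Dmp1, a matrix protein of osteocytes, lay near 1 TPM, and Sost, which encodes sclerostin, had 0 reads in controls 1, 2 and 4 and 1 read in control 3. The cells are therefore described by the name of the line and not as mature osteocytes.

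The clearest contrast in the profile lay within one stretch of chromosome 5, where genes of the SIBLING family of mineral-binding phosphoproteins stand side by side. Spp1 was the most abundant gene of the table, while its relatives Dmp1, Ibsp (bone sialoprotein) and Mepe (matrix extracellular phosphoglycoprotein) lay at 1 TPM or far below. The 250 bases before the annotated start of each of these 4 genes are shown because they are the proximal promoters of neighbours with very unequal levels. They are RefSeq windows on GRCm38.p6, all on the plus strand and written 5′ to 3′. Spp1 is at chr5:104434861-104435110, Dmp1 at chr5:104197325-104197574, Ibsp at chr5:104299037-104299286 and Mepe at chr5:104325079-104325328. Capitals mark matches on either strand to a TATA box core (TATAAA), a GC box (GGGCGG), a RUNX core (TGTGGT), an AP-1 site (TGANTCA) or a CCAAT box (CCAAT), and no matches overlapped.
Spp1: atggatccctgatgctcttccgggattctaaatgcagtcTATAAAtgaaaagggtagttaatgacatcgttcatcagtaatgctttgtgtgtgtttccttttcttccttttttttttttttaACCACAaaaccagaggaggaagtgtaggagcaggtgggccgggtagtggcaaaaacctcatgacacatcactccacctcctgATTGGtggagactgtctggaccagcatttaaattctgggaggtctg
Dmp1: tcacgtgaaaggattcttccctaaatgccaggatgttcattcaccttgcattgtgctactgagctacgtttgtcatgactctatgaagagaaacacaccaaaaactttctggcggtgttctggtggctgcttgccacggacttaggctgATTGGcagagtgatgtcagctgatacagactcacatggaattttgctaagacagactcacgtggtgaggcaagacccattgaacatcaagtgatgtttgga
Ibsp: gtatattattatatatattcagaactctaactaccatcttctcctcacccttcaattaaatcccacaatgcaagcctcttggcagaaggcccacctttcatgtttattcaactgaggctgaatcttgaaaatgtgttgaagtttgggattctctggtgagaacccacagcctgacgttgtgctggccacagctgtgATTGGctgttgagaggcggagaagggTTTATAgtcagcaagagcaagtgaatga
Mepe: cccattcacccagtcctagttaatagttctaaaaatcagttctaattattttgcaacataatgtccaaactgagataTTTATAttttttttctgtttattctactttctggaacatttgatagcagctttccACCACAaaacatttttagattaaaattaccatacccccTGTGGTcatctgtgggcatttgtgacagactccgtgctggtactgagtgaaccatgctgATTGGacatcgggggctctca

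Counted from the start, with negative positions upstream, the Spp1 window held a TATA box core at -211, a RUNX core at -128 and a CCAAT box at -46. The Dmp1 window held only a CCAAT box, at -101. Ibsp had a TATA box core at -28 and a CCAAT box at -54. The Mepe window held a TATA box core at -173, RUNX cores at -118 and -80, and a CCAAT box at -21. Each of the 4 windows held a CCAAT box, as did 34.5% of all 27025 RefSeq windows of the same length, and a RUNX core, the binding sequence of the osteoblast factor RUNX2, was held by 14.2% of them. A TATA box core was held by 13% of all windows, a GC box by 33.0% and an AP-1 site by 6.85%. These letters describe the windows and do not show that a factor was bound; the CCAAT box was added to the search after the windows had been read.

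Spp1 had 18223, 18265, 19478 and 18922 TPM in controls 1 to 4, a mean of 18722 ± 597 TPM (SD, n = 4). All 4 values lay above the highest TPM of any other gene, which was 16269 for Rps26 in control 1. The gene spans chr5:104435111-104441053. Dmp1, which ends 221.0 kb before Spp1 begins, had 1.26, 1.61, 0.74 and 0.94 TPM from 39, 49, 24 and 29 reads. Its level was thus above 1 TPM in controls 1 and 2 and below it in controls 3 and 4. Ibsp, 123.6 kb away, had 1 read in control 1 and 0 reads in the other libraries. Mepe is the nearest of these relatives, ending 96.5 kb before Spp1, and had 1 read in control 4 and 0 elsewhere. A count of 0 allows up to 3 reads, or 0.154 counts per 1000000 (CPM) in control 3. This limit covers counting error only, since the reads carry no molecular identifiers. The flanking genes, named after their values were seen, were intermediate. Sparcl1, which encodes a secreted relative of osteonectin, averaged 91.0 ± 12.4 TPM, and Pkd2, which encodes a polycystin channel, averaged 22.02 ± 1.58 TPM (SD, n = 4 each). Dspp, the remaining family member in the stretch, is not analysed here.

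**Figure D1:**
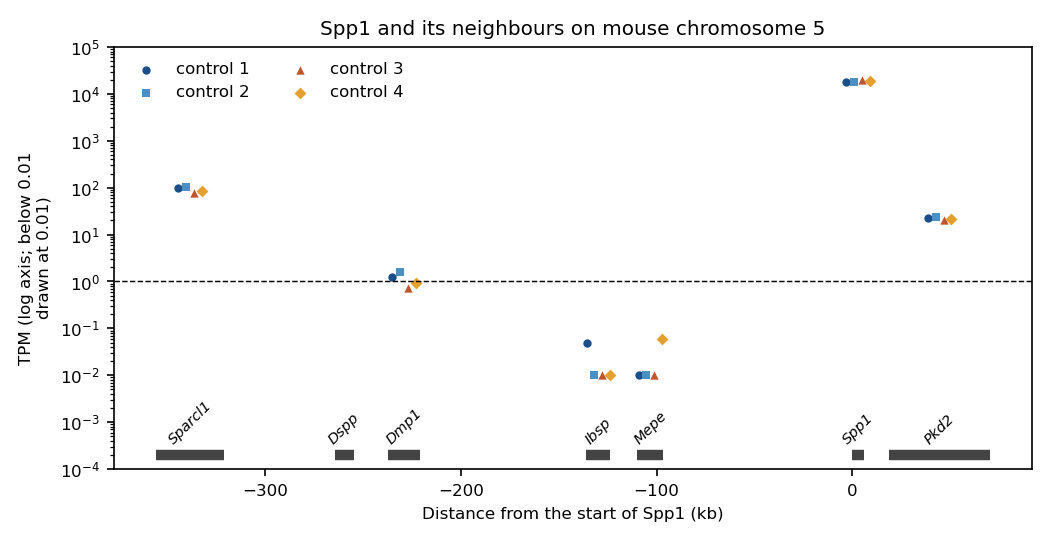
TPM in each control library (vertical log axis; values below 0.01 drawn at 0.01) for genes around Spp1, placed by distance in kilobases from the start of Spp1 (horizontal axis), with bars for gene bodies, 1 symbol for each library and a dashed line at 1 TPM. Spp1 sits near 18722 TPM in all 4 libraries, while Dmp1 straddles the line and Ibsp and Mepe lie below 0.1 TPM; Dspp has a bar and no values.

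The libraries were even in size. Assigned reads came to between 19501984 and 19643665 per library over 16369 genes, of which 16223 were protein coding and 62 long noncoding by the RefSeq annotation. A mean of at least 1 TPM was reached by 11326 genes, at least 10 TPM by 7703, at least 100 TPM by 1489 and at least 1000 TPM by 158. The share at 1 TPM or more was therefore 69.2% of all genes, and the median gene had 8.35 TPM, the background for the list counts below. In single libraries, between 11300 and 11334 genes reached 1 TPM, and 11061 did so in all 4. No more than 3 reads in any library were found for 2810 genes, and 639 of these had 0 reads in all 4. The highest 232 genes held 50% of all TPM. The 10 highest genes held 9.86% ± 0.25 of all TPM and the 50 highest 26.5% ± 0.27 (SD, n = 4).

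The 30 highest genes were led by osteopontin, glycolysis and translation. Of the 30, 13 encode ribosomal proteins, and the 84 ribosomal protein genes with a row together held 20.6% ± 0.43 of all TPM (SD, n = 4). Gapdh, the glycolytic enzyme glyceraldehyde-3-phosphate dehydrogenase, was next after Spp1 with 15435, 16208, 14866 and 16099 TPM. Rps26, a protein of the small ribosomal subunit, averaged 15543 ± 642 TPM, and the ranges of these genes over the libraries overlapped, so their order is not fixed. Rps27 followed with 9003 ± 718 TPM and Eef1a1, the translation elongation factor, with 7104 ± 512 TPM. Gapdh, Rps27, Eef1a1, Actg1 and Ftl1 were the 5 of the 30 genes with fractional read counts, whose reads may be shared with close copies, so their levels are less certain.

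Outside translation, the list held secreted and calcium-binding proteins. Mif, a cytokine that inhibits macrophage migration, averaged 6563 ± 203 TPM, and Lgals1, the galactose-binding lectin galectin-1, averaged 6105 ± 232 TPM (SD, n = 4 each). The S100 genes, which encode small calcium-binding proteins, took 3 of the 30 places. S100a4 had 7003, 6937, 5560 and 5657 TPM, so controls 1 and 2 were higher than controls 3 and 4. S100a11 averaged 6027 ± 646 TPM and S100a6 averaged 5071 ± 173 TPM. Ftl1, the light chain of the iron store ferritin, averaged 5423 ± 343 TPM, and Tpt1, a growth-related calcium-binding protein, averaged 5023 ± 391 TPM. Vim, the intermediate filament of mesenchymal cells, averaged 3992 ± 135 TPM, and Actg1, cytoplasmic gamma actin, averaged 5498 ± 214 TPM.

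Immune surface genes also reached the 30 highest. B2m, the invariant chain of MHC class I, had 5494, 5467, 6607 and 5401 TPM, with control 3 above the other libraries. Ifitm3, an interferon-induced membrane protein that blocks virus entry, averaged 4661 ± 473 TPM, and Ly6e, an interferon-induced surface protein, averaged 3981 ± 402 TPM. On lists drawn up after these values were seen, 13 of 13 MHC class I and peptide loading genes reached 1 TPM, with a list median of 400.2 TPM. Of 21 genes with a row on the interferon list, which also holds genes for interferons themselves, 20 did, with a median of 237 TPM. Over all genes the share was 69.2% and the median 8.35 TPM. Because the lists were chosen from these values, the difference from all genes was fixed in advance and is not a result. The interferon-induced genes Mx1 and Mx2 are not analysed here. Among those with a row, Bst2, which tethers budding viruses, averaged 2318 ± 295 TPM, Isg15, a ubiquitin-like modifier, 1632 ± 165 TPM, and Irf7, an interferon regulatory factor, 1062 ± 106 TPM. No value of these libraries shows whether this level belongs to the line at rest, since no untreated cells are included.

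**Figure D2:**
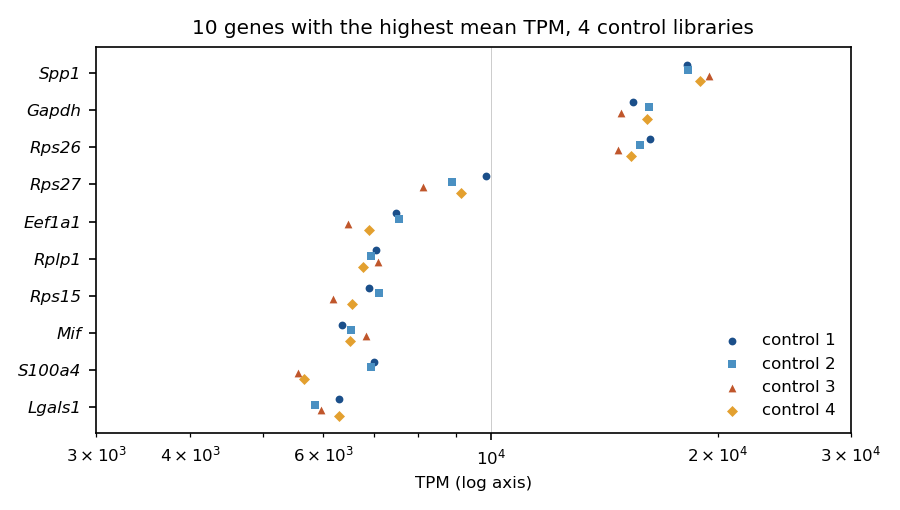
TPM (horizontal log axis) of the 10 genes with the highest mean TPM, 1 row for each gene and 1 symbol for each control library. Spp1 lies to the right of every other gene in all 4 libraries, Gapdh and Rps26 overlap, and the rest lie between the 5560 TPM of S100a4 in control 3 and the 9868 TPM of Rps27 in control 1.

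The ranking depended on dividing by gene length. By reads alone Fn1, which has a long transcript, was first with 483247, 519232, 357590 and 416963 reads, and Spp1 was next with a mean of 266326 reads. Only 9 of the 30 highest genes by TPM were also among the 30 highest by reads. Levels of different genes are therefore compared in TPM throughout.

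The osteocyte list ran from Timp1 at 813 ± 161 TPM down to genes with 0 reads in most libraries. Of 26 listed genes 23 had a row, and 17 of these reached a mean of 1 TPM, 13 reached 10 TPM and 9 reached 100 TPM. The share at 1 TPM or more was close to that of all genes (69.2%). The list median was 18.3 TPM, against 8.35 TPM over all genes. Timp1, an inhibitor of matrix metalloproteinases, was highest with 736, 641, 1013 and 862 TPM. Capg, a protein that caps actin filaments, averaged 572 ± 22.4 TPM. Gja1, the main connexin of osteocyte gap junctions, had 349, 311, 334 and 315 TPM, a narrow range. Ackr3, an atypical chemokine receptor that takes up CXCL12, averaged 293 ± 22.2 TPM, and Sema7a, a membrane-anchored semaphorin, averaged 261 ± 26.6 TPM (SD, n = 4 each).

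Pdpn had 177, 154, 181 and 165 TPM. RANKL and its decoy receptor were low and close to one another. Tnfsf11, which encodes RANKL, had 8.85, 8.65, 7.31 and 6.39 TPM, and Tnfrsf11b, which encodes its decoy receptor osteoprotegerin, had 8.11, 7.15, 6.38 and 6.95 TPM. Their ratio averaged 1.09 ± 0.12 over the 4 libraries, with RANKL above osteoprotegerin in controls 1 to 3 and below it in control 4. Phex, an endopeptidase of osteocytes that restrains FGF23 and is mutated in X-linked hypophosphataemia, averaged 2.92 ± 0.14 TPM from 201 to 226 reads. At most 3 reads per library were found for 5 genes of the list: Postn (periostin), Mepe, Sost, Enpp6 and Reln. Fgf23, the phosphaturic hormone of osteocytes, is not analysed here, nor are Ptprz1 and Npy.

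Osteoblast genes covered a wide span of levels. Of 23 listed genes, all with a row, 17 reached a mean of 1 TPM and 8 reached 100 TPM, with a median of 28.6 TPM. The share at 1 TPM or more was again close to that of all genes (69.2%). Col1a1, the alpha-1 chain of type I collagen, had 1775, 2008, 1480 and 1484 TPM, and Col1a2, its partner chain, had 1032, 1078, 837 and 854 TPM. Both chains were lower in controls 3 and 4 than in controls 1 and 2, and their ratio was 1.77 ± 0.06. Sparc, the collagen-binding protein osteonectin, averaged 1250 ± 91.3 TPM. The osteoblast transcription factor Atf4 averaged 645 ± 48.7 TPM (SD, n = 4).

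The factors that define the lineage were present at lower levels. Runx2, the master regulator of osteoblast commitment, had 27.9, 28.6, 27.9 and 29.9 TPM, among the steadier values of the list. Sp7, which encodes osterix and acts after RUNX2, had 4.27, 4.59, 3.53 and 4.33 TPM. Alpl, tissue non-specific alkaline phosphatase, averaged 36.2 ± 1.97 TPM. Osteocalcin was counted at neighbouring genes of chromosome 3 with near-identical sequence and fractional counts, so the split between them is uncertain: Bglap averaged 124 ± 9.16 TPM and Bglap2 averaged 350 ± 37.6 TPM. Ibsp had 1 read in all and Msx2, a homeobox factor of the osteoblast lineage, had 0 reads in all 4 libraries.

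Of the bone hormone and mineral genes, 11 of 17 with a row reached 1 TPM, with a median of 16.2 TPM, a share close to that of all genes (69.2%). Slc20a1, a phosphate importer, averaged 294 ± 31.6 TPM, and Fgfr1, a receptor for FGF23 and other fibroblast growth factors, averaged 142 ± 3.04 TPM. Phospho1, a phosphatase of matrix vesicles, averaged 94.2 ± 8.13 TPM, and Enpp1, which makes the mineral inhibitor pyrophosphate, averaged 43.3 ± 2.63 TPM. Vdr, the vitamin D receptor, had 46.8, 39.3, 28.3 and 27.1 TPM, again higher in controls 1 and 2. Its target Cyp24a1, the enzyme that degrades vitamin D, had 1 read in control 1 and none in the others. Kl, the FGF23 coreceptor klotho, and the phosphate transporters Slc34a1, of kidney, and Slc34a2, of gut and lung, also had at most 3 reads per library. Pth1r, the receptor for parathyroid hormone, had 0.23, 0.15, 0.13 and 0.29 TPM from 5, 3, 3 and 7 reads, which is at or just above the limit that a count of 0 allows.

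**Figure D3:**
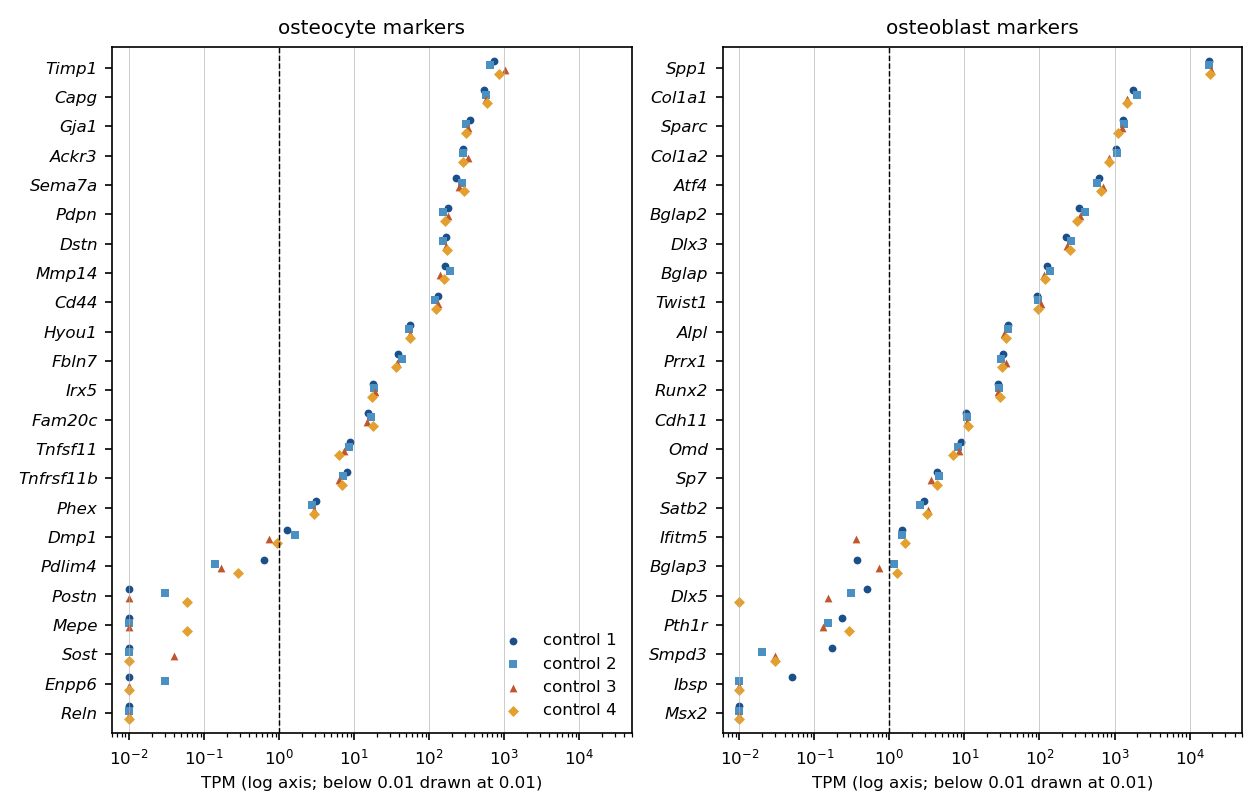
TPM (horizontal log axis; values below 0.01 drawn at 0.01) of the osteocyte list (left) and the osteoblast list (right), 1 row for each gene, 1 symbol for each control library and a dashed line at 1 TPM. The 4 libraries sit together for genes above 10 TPM and scatter below 1 TPM, where Sost, Mepe, Ibsp and Msx2 lie at the left edge.

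Markers of other cell types were looked for, since a bulk library cannot show which cell a transcript came from, and fewer cells of a type and less RNA per cell cannot be told apart. None of 5 endothelial, 10 epithelial or 9 neural genes with a row reached a mean of 1 TPM, which 69.2% of all genes reached. Of 12 muscle genes 2 did, Acta1 (skeletal alpha actin) at 11.5 ± 2.63 TPM and Des (desmin) at 3.17 ± 0.40 TPM, while 10 had at most 3 reads per library, Myod1 and Myog among them. The summed level of the endothelial list ran from 0.60 to 1.31 TPM, that of the epithelial list from 1.11 to 2.52 TPM and that of the neural list from 0.64 to 1.56 TPM.

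Some genes of connective tissue relatives were present, while most chondrocyte and adipocyte genes with a row lay below 1 TPM. Of 14 chondrocyte genes with a row 5 reached 1 TPM, with a list median of 0.17 TPM. Over all genes, 69.2% reached 1 TPM and the median was 8.35 TPM. The 9 chondrocyte genes below 1 TPM included Col2a1 at 0.39 ± 0.05 TPM and Comp at 0.15 ± 0.11 TPM. Prg4, which encodes the joint lubricant lubricin, had 360, 298, 237 and 275 TPM, and Sox9, the chondrocyte master factor, had 87.5, 113, 98.7 and 128 TPM. Col10a1, the collagen of hypertrophic cartilage, averaged 9.17 ± 2.37 TPM, and Ihh, Cnmd, Col9a1, Hapln1 and Matn1 had at most 3 reads per library. Of 9 adipocyte genes 4 reached 1 TPM, with a list median of 0.20 TPM. The transcription factor Cebpa led them at 66.9 ± 5.10 TPM. Adipoq, which encodes adiponectin, and Plin1, a lipid droplet protein, had at most 3 reads per library.

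Of 12 blood and osteoclast genes with a row 7 reached 1 TPM, against 69.2% of all genes. Ctsk, the collagen-degrading cathepsin K, had 94.6, 98.0, 130 and 141 TPM, higher in controls 3 and 4. Cd14, a lipopolysaccharide coreceptor, averaged 20.6 ± 4.64 TPM, and Cd68, a lysosomal protein of macrophages, averaged 10.4 ± 2.07 TPM. Hba-a1 was listed at 18.7 ± 1.80 TPM with fractional counts, and its reads may be shared with a near-identical globin copy. Ptprc, the pan-leukocyte antigen CD45, named after its values were seen, had 0.21, 0.04, 0.17 and 0.05 TPM. Itgam, the myeloid integrin CD11b, had 1 read in control 4 and 0 elsewhere. The summed list ran from 145 to 204 TPM, and the part of other cells in it was not tested.

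Of 18 mesenchymal genes 16 were at 1 TPM or more, with a median of 71.4 TPM, against 69.2% and 8.35 TPM over all genes. Behind S100a4 and Vim came Ly6a, the stem cell antigen Sca-1, with 1083, 795, 1324 and 962 TPM and fractional counts. Col3a1, the type III collagen of soft connective tissue, averaged 906 ± 65.5 TPM, and Dcn, the collagen-binding proteoglycan decorin, averaged 344 ± 21.97 TPM (SD, n = 4 each).

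Among matrix genes, a few glycoproteins held most of the TPM. Of 40 matrix glycoprotein genes with a row 36 reached 1 TPM, against 69.2% of all genes, and 19 reached 100 TPM. Their median was 86.3 TPM, against 8.35 TPM over all genes, and their summed level was 4.69% of all TPM. Spp1 led them with 1.87% of all TPM, and Lgals1, a lectin counted in this list, followed with 0.61%. Ccn2 and Fn1 held 0.47% each. Ccn2, a matricellular protein also known as connective tissue growth factor, had 3771, 4517, 5171 and 5524 TPM, with controls 3 and 4 above controls 1 and 2. Fn1, the ligand of integrin alpha-5 beta-1, had 5123, 5512, 3690 and 4353 TPM, with the reverse order. Ecm1, a secreted glycoprotein of skin and cartilage, averaged 2270 ± 185 TPM. Postn and Mfap2, a protein of elastic microfibrils, had at most 3 reads per library.

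Collagens were fewer and more modest. Of 11 fibrillar collagen genes 9 reached 1 TPM, against 69.2% of all genes. Col5a2 at 297 ± 13.2 TPM and Col5a3 at 220 ± 24.0 TPM came behind the chains of types I and III. Of 27 other collagen genes with a row 16 reached 1 TPM. The beaded filament chains Col6a1, Col6a2 and Col6a3 averaged 767 ± 110, 660 ± 99.5 and 303 ± 61.8 TPM. Col16a1, a fibril-associated chain, averaged 119 ± 12.5 TPM and Col4a1, of basement membranes, averaged 112 ± 13.2 TPM. All 38 collagen genes with a row together held 0.68%, 0.73%, 0.56% and 0.59% of all TPM in controls 1 to 4. The collagen share was lower in controls 3 and 4, the direction seen for Fn1. Col1a1 and Col1a2 had that direction too, but they are part of this share.

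Of the 23 enzymes and chaperones that build and cross-link collagen, 21 reached 1 TPM and the same number reached 10 TPM. Their median was 131 TPM, against 8.35 TPM over all genes, of which 69.2% reached 1 TPM. Pcolce, which speeds procollagen cleavage, averaged 2121 ± 142 TPM, and Lox, the cross-linking lysyl oxidase, averaged 968 ± 53.8 TPM. P4hb, a subunit of prolyl hydroxylase, averaged 702 ± 27.0 TPM, Serpinh1, the collagen chaperone, 480 ± 39.3 TPM, and Ppib, a prolyl isomerase, 462 ± 22.6 TPM. Adamts3, a procollagen protease, had at most 3 reads per library.

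Proteoglycans were led by Bgn (biglycan), a small leucine-rich proteoglycan of bone, with 2229, 2323, 2013 and 1954 TPM. Of 22 proteoglycan genes with a row 17 reached 1 TPM, against 69.2% of all genes. The membrane syndecans Sdc4, Sdc2 and Sdc1 averaged 457 ± 19.9, 180 ± 12.2 and 175 ± 9.58 TPM. Acan, the aggrecan of cartilage, is not analysed here. Proteases and their inhibitors reached 1 TPM in 21 of 29 cases, a share close to that of all genes (69.2%). Ctsb, the lysosomal cathepsin B, averaged 1354 ± 48.2 TPM, Mmp2, gelatinase A, 661 ± 47.8 TPM, and Timp2, its inhibitor and activator, 541 ± 14.8 TPM.

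Receptors for this matrix were dominated by a single alpha chain. Itga5, which pairs with Itgb1 to bind fibronectin, had 1014, 1198, 1202 and 1322 TPM, lowest in control 1. Itgb5 averaged 248 ± 5.23 TPM and Itgb1 190 ± 10.1 TPM. Itgb7, known as a leukocyte integrin chain, had 129, 113, 165 and 155 TPM. Itga3, a laminin-binding chain, averaged 32.1 ± 0.30 TPM. Of 26 integrin genes 15 reached 1 TPM, with a median of 2.75 TPM, against 69.2% and 8.35 TPM over all genes. At most 3 reads per library were found for 7, among them Itgb6, Itga4, Itga8, Itga9 and Itgax.

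Growth factor receptors reached 1 TPM for 19 of 30 genes with a row, against 69.2% of all genes. Axl, a TAM family kinase that binds GAS6, averaged 265 ± 8.26 TPM, and Epha2, an ephrin receptor, averaged 138 ± 6.81 TPM. The platelet-derived growth factor receptors Pdgfrb and Pdgfra averaged 166 ± 12.7 and 134 ± 3.75 TPM. Fgfr2, Fgfr4, Ntrk2 and Flt4 were among 5 genes that had at most 3 reads per library. Of 14 TGF-beta and BMP receptor genes 11 reached 1 TPM, against 69.2% of all genes. Highest were Eng (endoglin, a coreceptor) at 105 ± 3.44 TPM and Tgfbr3 (betaglycan) at 44.8 ± 8.25 TPM. The kinases Acvr1, Tgfbr2 and Bmpr1a averaged 40.9 ± 2.01, 27.0 ± 0.83 and 23.5 ± 1.49 TPM.

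Wnt receptors were lower. Of 15 genes with a row 12 reached 1 TPM, against 69.2% of all genes, and none reached 100 TPM. Ryk, an atypical Wnt receptor, averaged 76.4 ± 2.84 TPM, and Lrp5, the coreceptor that sclerostin blocks, averaged 26.9 ± 1.69 TPM. Fzd7, Fzd2 and Fzd5 averaged 25.1 ± 3.39, 18.5 ± 1.10 and 12.1 ± 1.75 TPM. Lgr5 and Fzd9 had at most 3 reads per library.

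Cytokine receptors had 28 of 32 genes at 1 TPM or more and a median of 33.5 TPM. Over all genes the share was 69.2% and the median 8.35 TPM, and the list was chosen with earlier results of these data known. Tnfrsf12a, the receptor for TWEAK, had 1016, 1072, 1282 and 1168 TPM, and Il1rl1, the interleukin-33 receptor ST2, had 339, 286, 439 and 413 TPM. Both were higher in controls 3 and 4. Ifnar2, a chain of the type I interferon receptor, averaged 245 ± 18.0 TPM, Il17rc 138 ± 5.71 TPM and Tnfrsf1a 124 ± 5.61 TPM. Tnfrsf11a, which encodes the RANKL receptor RANK of osteoclast precursors, had 0 reads in all 4 libraries.

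On the list of hormone and lipid G protein-coupled receptors 19 of 32 genes with a row reached 1 TPM, against 69.2% of all genes. Only Ackr3 of the list reached 100 TPM. S1pr1, a receptor for sphingosine 1-phosphate, averaged 72.7 ± 1.83 TPM, and F2r, the thrombin receptor, averaged 52.1 ± 1.82 TPM. Ednra, the endothelin A receptor, averaged 46.4 ± 5.33 TPM, and Lpar1, a receptor for lysophosphatidic acid, averaged 28.5 ± 0.15 TPM. Among nuclear receptors 24 of 29 reached 1 TPM, against 69.2% of all genes. The early-response receptor Nr4a1 had 1234, 1155, 1034 and 979 TPM, above the retinoic acid receptor Rarg at 313 ± 21.97 TPM and the oxysterol receptor Nr1h2 at 146 ± 6.29 TPM.

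Highest of the mechanosensitive channel list was Piezo1, a mechanically gated cation channel needed for the loading response of osteocytes. It had 99.8, 111, 112 and 113 TPM. Trpv4, a flow- and osmolarity-sensitive channel, had 14.1, 13.4, 12.5 and 12.9 TPM, and Piezo1 was 8.27 ± 0.84 times as abundant in TPM. Piezo2, the touch channel of sensory neurons, named after its values were seen, had 0.03 to 0.05 TPM. Tmem63a and Tmem63b, which encode channels of the OSCA family, averaged 51.7 ± 1.21 and 29.8 ± 0.48 TPM. Mcoln1, a lysosomal calcium channel, averaged 40.8 ± 1.23 TPM and Pkd1, a polycystin, 27.8 ± 3.45 TPM. Of 23 mechanosensitive and TRP channel genes with a row 12 reached 1 TPM, against 69.2% of all genes. Their median was 2.14 TPM, against 8.35 TPM over all genes. Trpv1, Trpm8, Trpc6 and 3 others had at most 3 reads per library.

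Gap junction and ATP signalling genes were led by Gja1. P2rx4, an ATP-gated channel, averaged 29.5 ± 2.09 TPM, and Nt5e, the enzyme CD73 that makes adenosine, averaged 23.8 ± 3.87 TPM. Of 27 genes with a row 11 reached 1 TPM, with a median of 0.70 TPM, against 69.2% and 8.35 TPM over all genes. At most 3 reads per library were found for 10, among them Panx3, Gjb1, P2rx1, P2ry4 and P2ry12.

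Calcium channel genes were low. Of 32 genes with a row 16 reached 1 TPM, against 69.2% of all genes, and none reached 100 TPM. The auxiliary subunits Cacnb3 and Cacnb1 averaged 28.1 ± 1.09 and 24.5 ± 2.80 TPM. The store release and entry genes Itpr3, Stim2 and Orai2 averaged 20.6 ± 1.84, 19.9 ± 1.79 and 19.7 ± 1.28 TPM. Potassium and chloride channel genes reached 1 TPM in 15 of 29 cases, against 69.2% of all genes. Clic1 and Clic4, chloride intracellular channel proteins, averaged 425 ± 16.1 and 285 ± 14.6 TPM. Kcnn4, a calcium-activated potassium channel, had 83.3, 86.2, 96.1 and 110 TPM. Ano6, a calcium-activated scramblase, averaged 40.8 ± 1.72 TPM and Ano10 26.1 ± 0.87 TPM.

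Genes known from the response of bone cells to flow included 28 of 31 at 1 TPM or more, against 69.2% of all genes. At 100 TPM or more were 17, and their list median was 114 TPM, against 8.35 TPM over all genes. Ccn2 was highest. Ccn1, its matricellular relative and a YAP target, had 1337, 1459, 1952 and 1904 TPM, and Junb and Fosl1, AP-1 subunits, averaged 1690 ± 75.0 and 824 ± 47.9 TPM. Vegfa, the angiogenic growth factor, averaged 822 ± 54.8 TPM. Ptgs2, the inducible cyclooxygenase of prostaglandin synthesis, had 179, 156, 196 and 196 TPM. The 3 genes below 1 TPM were the nitric oxide synthases. Nos1 had at most 3 reads per library, and Nos2 and Nos3 averaged 0.22 ± 0.10 and 0.13 ± 0.03 TPM.

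Of 47 genes for secreted bone signals with a row, 34 reached 1 TPM, a share close to that of all genes (69.2%). Csf1, the macrophage growth factor that osteoclast precursors need, had 1383, 1533, 1529 and 1667 TPM. It stood far above RANKL in TPM in every library. The chemokines Ccl5 and Ccl7 averaged 1125 ± 114 and 736 ± 91.0 TPM, and the secreted Wnt antagonist Sfrp4 averaged 451 ± 11.4 TPM. Sost, Wnt3a, Wnt4 and Frzb had at most 3 reads per library. Dkk1, Bmp2 and Nog are among the signals not analysed here.

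Hox genes, which record position along the body and limb axes, differed by cluster. Of 31 Hox genes with a row 21 reached 1 TPM, a share close to that of all genes (69.2%). These were 11 of 11 in the A cluster, 5 of 9 in C and 5 of 8 in D. The summed level was 130 ± 5.83 TPM for Hoxa genes, 109 ± 4.35 TPM for Hoxc genes and 34.2 ± 1.63 TPM for Hoxd genes (SD, n = 4 each). In the B cluster 3 genes had a row and none exceeded 1 read in a library; the other Hoxb genes are not analysed here. Hoxc10 was highest, with 55.8, 55.9, 53.0 and 56.7 TPM, and Hoxa11 followed with 57.0, 55.1, 44.5 and 49.0 TPM. Their ranges overlapped. Hoxa10, Hoxc6 and Hoxd8 averaged 19.8 ± 1.81, 19.5 ± 2.36 and 16.1 ± 0.95 TPM. Of 40 other skeletal and limb factors with a row 31 reached 1 TPM, against 69.2% of all genes. They were led after Atf4 by Dlx3 at 245 ± 19.6 TPM, Osr1 at 232 ± 47.6 TPM, Sox9 and Prrx2 at 102 ± 4.39 TPM. Pitx1, a hind limb factor in the embryo, averaged 88.2 ± 7.23 TPM, and its hind limb partner Tbx4 had 0.03 to 0.21 TPM; both were named after their values were seen.

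**Figure D4:**
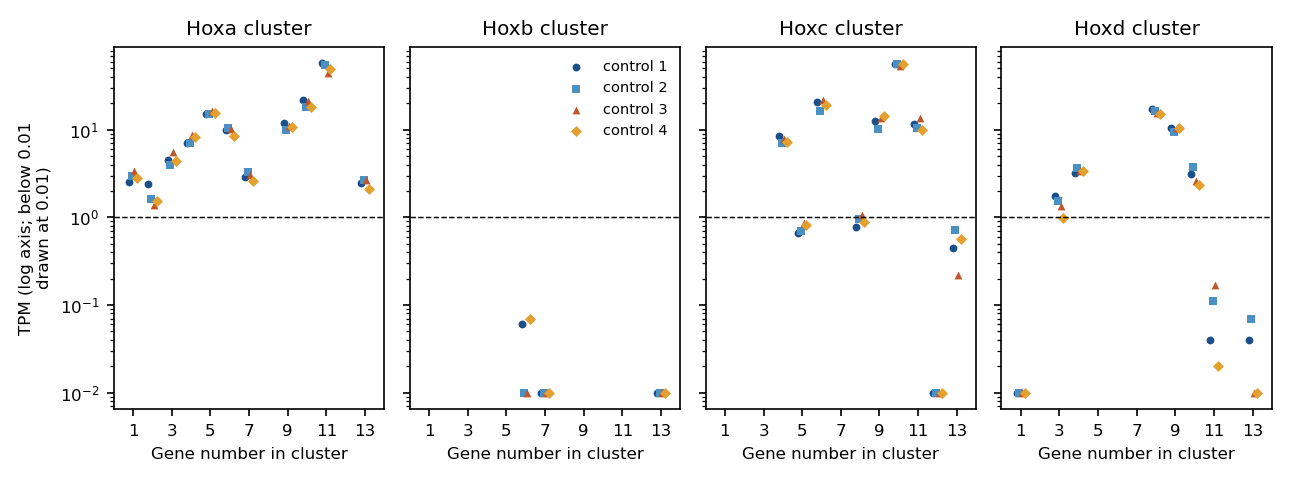
TPM (vertical log axis; values below 0.01 drawn at 0.01) of Hox genes with a row, in 4 panels for the 4 clusters, against the gene's number within its cluster, with 1 symbol for each control library and a dashed line at 1 TPM. All 11 Hoxa genes lie above the line, the 3 Hoxb genes lie below 0.1 TPM, and the highest genes are Hoxc10 and Hoxa11.

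Cell cycle genes were present throughout. All 26 reached 1 TPM, against 69.2% of all genes, and 24 reached 10 TPM. Cdkn2a, whose locus encodes the inhibitors p16 and ARF, had 926, 956, 1004 and 1019 TPM. Cdk4, the kinase that p16 binds, averaged 514 ± 28.2 TPM, Pcna, the replication clamp, 440 ± 10.4 TPM, and Cdkn1a, the inhibitor p21, 272 ± 11.3 TPM. Of 32 cytoskeletal genes 31 reached 1 TPM, against 69.2% of all genes. After Actg1 and Vim came Tmsb10, an actin monomer binder, at 3520 ± 315 TPM, Actb at 2759 ± 288 TPM and Tuba1b at 2030 ± 155 TPM, the actin and tubulin counts being fractional. The exception was Myh10, which encodes non-muscle myosin heavy chain IIB, with 1 read in control 1 and 0 in the others.

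Glycolysis genes reached 1 TPM in 18 of 20 cases, against 69.2% of all genes, and held 2.91% of all TPM. Eno1 (enolase), Pkm (pyruvate kinase), Aldoa (aldolase) and Ldha (lactate dehydrogenase) averaged 2483 ± 63.2, 2401 ± 41.5, 2106 ± 72.4 and 2102 ± 15.1 TPM. Of 10 imprinting and X inactivation genes with a row 3 reached 1 TPM, against 69.2% of all genes. Plagl1, an imprinted zinc finger factor, averaged 59.5 ± 3.05 TPM, Igf2r, the receptor that clears IGF2, 29.7 ± 4.36 TPM, and Peg10 5.17 ± 0.63 TPM. Grb10, Dlk1 and Peg3 had at most 3 reads per library. The Y-linked gene Uty had 0.11 to 0.13 TPM from 9 or 10 reads, and Xist is not analysed here.

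The spread between the libraries was small and exceeded counting error. Among the 7703 genes with a mean of at least 10 TPM, the median coefficient of variation of TPM (CV, the SD over the mean) was 6.20%, against a median of 3.10% that Poisson counting alone would give. At 1000 TPM or more the median CV was 5.49%, against 0.79% from counting. The biological coefficient of variation, the spread left after counting error in a negative binomial fit, was 7.41% over 11822 genes. Of 5566 genes with a mean of at least 20 TPM, 871 (15.6%) had a CV above 10% and 68 (1.22%) a CV above 20%.

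The libraries fell into pairs that the labels do not name. The median absolute log2 ratio of TPM was 0.07 between controls 1 and 2 and 0.08 between controls 3 and 4. Across these pairs it was between 0.10 and 0.12. Of the 5566 genes, 6 differed by more than 1.5 times between controls 1 and 2 and 2 between controls 3 and 4, against 36 to 53 across the pairs. The first principal component held 64.0% of the variance, with scores of -5.07 and -6.36 for controls 1 and 2 and of 6.93 and 4.50 for controls 3 and 4. No library was a copy of another, since chi-square per degree of freedom lay between 4.71 and 17.2 for every pair where sampling noise alone gives 1. No batch is labelled, and no test was made of this split. Genes described here as higher in either pair share its direction, and the share of all genes that do so was not counted.

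Among genes with a mean of at least 20 TPM, the most variable was Saa3, an acute-phase serum amyloid protein. It had 40.9, 20.4, 118 and 84.0 TPM, a CV of 66.5%. The receptors Nr4a3 and Nr4a2, relatives of Nr4a1 that many stimuli induce quickly, had 129, 115, 55.6 and 50.6 TPM and 119, 103, 56.5 and 43.9 TPM. Apold1, another early-response gene, had 172, 175, 81.3 and 84.0 TPM. All 3 were higher in controls 1 and 2 than in controls 3 and 4. This is the split of the first principal component, which held 64.0% of the variance, so it is not particular to these genes. Other early-response genes, named after their values were seen, varied less. Fos, Junb and Egr1 had CVs of 1.21%, 4.44% and 7.01%. Nr4a1 and Klf4, with CVs of 10.5% and 16.8%, were higher in controls 1 and 2, as was Egr1. Myc, with a CV of 12.3%, had 283, 326, 356 and 378 TPM, higher in controls 3 and 4. Fosl1, with a CV of 5.82%, was also higher in controls 3 and 4, so these genes did not share a single direction. Apod, an apolipoprotein that carries small lipids, had 35.4, 25.8, 71.7 and 46.5 TPM, and Mgp, an inhibitor of matrix mineralisation, had 15.5, 34.0, 40.4 and 41.1 TPM. Cd99, a surface protein of cell adhesion, had 173, 233, 158 and 74.6 TPM. These values rest on 16, 21, 15 and 7 reads, for which counting error alone gives a CV of 26.0%. Cd99 ranked 928 by mean TPM and 11851 by reads, so its level rests on the division by length, and no split is read from it. Chac1 (an enzyme that degrades glutathione), Htra3 (a serine protease), 2200002D01Rik, Ces1a (a carboxylesterase), Cbarp, Trp53i11, LOC115489044 and F13a1 (the A chain of clotting factor XIII) completed the 15 most variable genes, with CVs between 29.4% and 33.8%.

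The steadiest genes had CVs below their own counting error. Of the lowest 10, those described here had CVs between 0.52% and 0.66% and were Lpar1, Rbm17 (a splicing factor), Npm1 (nucleophosmin), Pea15a, Ankfy1, Yif1a, Wdr3, Agpat1 and Mrpl4. Npm1 was the most abundant of them, with 767, 772, 761 and 767 TPM. Of the 5566 genes, 640 had a CV below their counting error, so a place among the lowest 10 describes these libraries only.

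**Figure D5:**
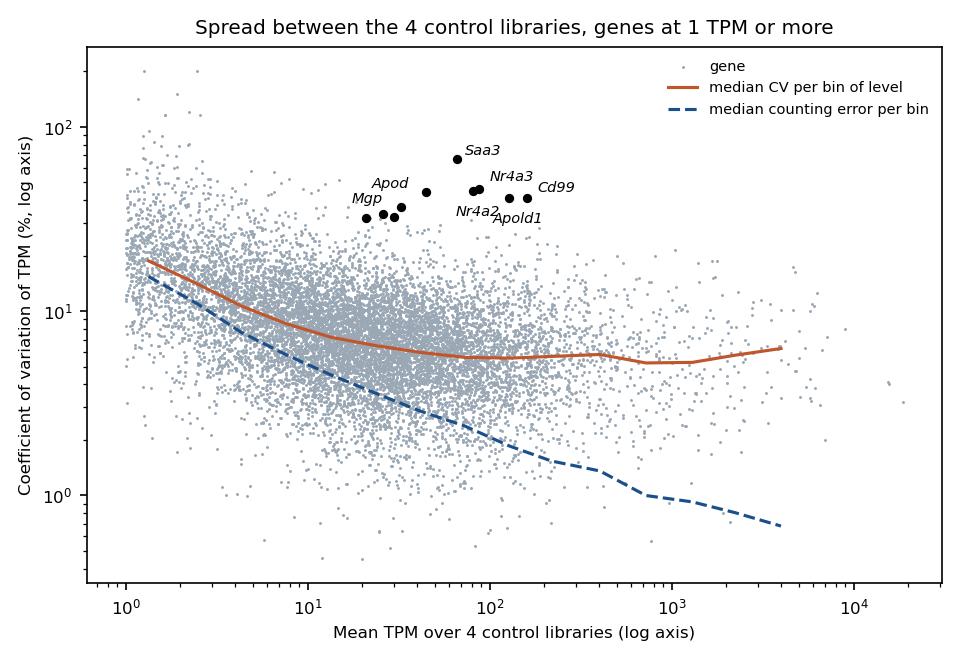
Coefficient of variation of TPM over the 4 control libraries in percent (vertical log axis) against mean TPM (horizontal log axis), 1 point for each of 11326 genes, with the median CV (solid) and the median counting error (dashed) per bin of level and the 10 most variable genes at 20 TPM or more in black. The solid line flattens near 6% above 10 TPM while the dashed line keeps falling, and Saa3, the Nr4a genes, Apold1, Apod, Cd99 and Mgp stand above the other genes of their level.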

How the data were processed

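RNA sequencing of MLO-Y4 cells gave 1 table of 16369 genes for 8 libraries, of which the 4 control libraries were used. The authors deposited 3 values per gene and library. The authors deposited estimated counts of reads, whole except for between 6.18% and 6.60% of genes in a control library. The tool that made the counts is not given in the sources used here. Deposited TPM values have the same sum in each library, and the deposited FPKM values were used only as an alternative. The submitters' processing notes name HISAT, Bowtie2, GRCm38.p6 and mm10, with no roles or versions. The labels' protocols name no strand-specific kit, so a gene and its antisense partner cannot be told apart.

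From these values the mean, SD and coefficient of variation of TPM were computed over the 4 libraries, with pandas 2.3.3 on Python 3.11.15, and a gene was counted as present at a mean of at least 1 TPM. Estimated counts were rounded to whole numbers for edgeR 4.0.16 (R 4.3.3), which estimated a common dispersion with TMM scaling and no covariate, and for DESeq2 1.42.0 as an alternative. The edgeR estimate and the median coefficient of variation were tested on simulated data; the first was recovered, and the second, from 4 values a gene, ran below the simulated spread. Counting error was taken as Poisson. RefSeq coordinates of GRCm38.p6 matched 16321 genes. No groups were compared, and no p-value was computed.

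The 36 gene lists hold 872 genes, of which 769 had a row and 525 reached 1 TPM. Of those with a row, the share at 1 TPM or more was close to that of all genes (69.2%). The members and lists were chosen with earlier results of these data known, and 5 more lists were added afterwards. Genes named are the 30 highest by mean TPM, the 5 highest of each list, up to 5 members of a list with at most 3 reads in every library, the 15 most and 10 least variable genes at 20 TPM or more, and bone genes set by name. Any further gene was named after its values were seen. Genes without a row are not analysed here, and some genes that the rule names are not reported here.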

Additional observations from a re-analysis of the deposited data

Results flagged for a closer look

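For each of 246 genes named above, the 4 control values were checked for a library that stood apart, by Dixon's criterion on its gap to the nearest other library. Chance alone gives about 1 such gene in 20, and 31 genes (12.6%) met it. For 24 of the 31 no library had more than 3 reads, so the check saw only single reads or rounding.

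The other 7 genes were well covered. How many of the 246 genes checked were well covered was not counted. These 7 are therefore not shown to be more than the chance rate given above would flag, and their values are given as a description only. In control 3, B2m had 6607 TPM, Ackr3 326 TPM and the Wnt receptor Ryk 80.7 TPM, each above the other libraries. Control 1 was the low one for the channels Piezo1, at 99.8 TPM, and Mcoln1, at 39.0 TPM. Vim stood high in control 2 at 4193 TPM, and Itga3 in control 4 at 32.6 TPM, where the other libraries lay between 31.9 and 32.0 TPM.

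Among the genes with at most 3 reads, control 1 alone was above 0 for Cyp24a1 (0.03 TPM), Gjb1 (0.07 TPM), Ibsp (0.05 TPM), Itga8 (0.04 TPM), Matn1 (0.05 TPM), Myh10 (0.01 TPM), P2ry12 (0.04 TPM) and P2ry4 (0.04 TPM), and was highest for Plin1 (0.10 TPM) and Trpv1 (0.05 TPM). In control 2 the lone value belonged to Cnmd (0.08 TPM), Enpp6 (0.03 TPM), Hapln1 (0.05 TPM), Itgax (0.02 TPM) and P2rx1 (0.04 TPM). Control 3 held it for Adamts3 (0.01 TPM), Panx3 (0.04 TPM), Slc34a2 (0.04 TPM) and Sost (0.04 TPM), and was alone at 0.00 TPM for Itga4. Itgam (0.02 TPM), Mepe (0.06 TPM), Myod1 (0.10 TPM) and Wnt3a (0.03 TPM) were above 0 only in control 4.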

How the results depend on the processing

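No paired analysis was possible because only 1 group was used and no result comes from a test. The count of genes at 1 TPM or more stayed within 1.5 times of 11326 under every alternative run (9309 at 5 TPM, 11936 at 0.5 TPM, 10878 by FPKM), and leaving out 1 library gave 11319 to 11329. The share of the 50 highest genes was 18.2% in CPM and 23.1% without genes whose counts were not whole, against 26.5% in TPM; without 1 library it ran from 26.5% to 26.6%. Ranking by CPM kept 9 of the 30 highest genes, by median TPM 28, and without 1 library 28 to 30. The median CV of 6.20% became 9.85% with no filter on level and 7.25% at 1 TPM or more. As an SD of log2(TPM + 1) the spread was 0.0866, with 0.1 added it was 0.089, and without 1 library the CV was 5.53% to 6.09%, lowest without control 3. The biological coefficient of variation of 7.41% became 8.32% with DESeq2 dispersions and 6.91% to 7.79% without 1 library. List counts stayed within 1.5 times of their own value for 41 of 41 lists by FPKM, 40 at 0.5 TPM and 36 at 5 TPM. At this depth a gene with 3 reads or fewer cannot be told from one with none.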

Other observations

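The most upstream RefSeq window of each gene was searched for the same motifs, as a description across genes, which are not independent. Among genes at 1 TPM or more, a GC box stood in 60.8% of 9133 windows. Below 1 TPM, it stood in 33.6% of 3803 windows of genes in the table. For the 100 highest genes among those with a window, it stood in 51.0%. A TATA box core stood in 6.32% of windows of genes at 1 TPM or more, in 12.3% of those below, and in 13% of those of the same 100 genes. A RUNX core stood in 10.02% of windows of genes at 1 TPM or more, in 14.7% of those below and in 9.0% of those of the same 100 genes. No test was made of these shares.

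Genes of other groups were named after their values were seen. Mt1 and Mt2, metallothioneins that bind zinc, averaged 3492 ± 380 and 1417 ± 203 TPM (SD, n = 4 each). Slc2a1, the glucose transporter GLUT1, had 144, 137, 235 and 227 TPM, and Hmox1, heme oxygenase 1, had 118, 141, 189 and 208 TPM, both higher in controls 3 and 4 than in controls 1 and 2. Klf4, a Krüppel-like factor, had 203, 202, 147 and 156 TPM and was higher in controls 1 and 2. The 89 nuclear genes of the respiratory chain with a row held 2.99% ± 0.07 of all TPM, of which 88 reached 1 TPM. The solute carrier genes with a row numbered 309, and 180 of them reached 1 TPM. Over all genes the share at 1 TPM or more was 69.2%.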
